A study of Mus musculus with 6 samples.

Results

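The genes of the translation initiation factors and of their inhibitors, the eIF4E-binding proteins (4E-BPs), were followed in 6 RNA-seq libraries of AML12 cells, a line of non-tumorigenic hepatocytes from a mouse transgenic for human TGF-alpha. Rows of the deposited gene table were taken by name, as every gene called Eif followed by a number except the eIF2 kinases, of which there are 4. This gave 51 of 26359 genes, 48 for initiation factors and 3 for the 4E-BPs Eif4ebp1, Eif4ebp2 and Eif4ebp3. Another 19 rows bear such a name only in the protein annotation, reached at most 24 counts in a library and were not used.

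The 3 sh-1 libraries come from AML12 cells whose line is given as sh-1 and whose titles read Sh-2, and the 3 sh-NC libraries from AML12 cells whose line is given as sh-NC and whose titles give AML12 alone. The series asks how TM9SF1, a membrane protein of the endosome and Golgi, acts in hepatocytes during liver ischemia and reperfusion, and its design names AML12 lines made to lower or raise TM9SF1 among the cells that were sequenced. The sources used here do not say what the sh-1 and sh-NC constructs target, whether the sh-NC cells carry a construct at all, whether each line is 1 clone, or whether the libraries of a group are separate cultures, so p-values measure the spread between libraries only. Tm9sf1 itself measured 35.3, 36.8 and 36.5 CPM in the sh-1 libraries, against 47.2, 53.4 and 45.8 CPM in the sh-NC libraries, where CPM is a count scaled to a common library total with TMM factors. Its log2 fold change, sh-1 over sh-NC, was -0.43 (edgeR adjusted p = 0.00186, SE 0.10), where an adjusted p comes from the quasi-likelihood test of edgeR with Benjamini-Hochberg adjustment over all 13197 genes tested. With the GC and length correction described further on it was -0.078 (edgeR adjusted p = 0.437, SE 0.085), where its lower level in sh-1 was not called.

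Initiation is the stage at which a ribosome is placed on the start codon of an mRNA. eIF2 carries the initiator methionyl tRNA to the small ribosomal subunit as a complex with GTP, and eIF2B recharges eIF2 with GTP after each round, the step that phosphorylation of the eIF2 alpha subunit blocks during stress. eIF3, eIF1 and eIF1A assemble on the small subunit, the cap complex of eIF4E, eIF4G and eIF4A brings it to the mRNA, and eIF5 and eIF5B act at the start codon and at the joining of the large subunit. The 4E-BPs hold eIF4E away from eIF4G until mTORC1 phosphorylates them. In liver these factors set how fast hepatocytes make protein in response to feeding, amino acids and stress. All values below are mRNA levels.

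Promoter windows from RefSeq are shown for a few genes that the results turn on, chosen after their values were seen, on GRCm38.p6, covering 250 bases before to 50 bases after an annotated start. Of the 51 genes 39 had a window, and 51 windows were listed for them because some genes have several starts. Windows were searched on both strands for CACGTG, the E-box bound by MYC and by MITF/TFE factors, and for TGATGNAAN, a form of the element bound by ATF4. Eif2s2 (chr2:154892857-154893156 on the minus strand) and Eif2s3x (chrX:94212602-94212901 on the minus strand) stand for subunits of eIF2 whose mRNA rose, Eif2b4 (chr5:31193090-31193389 on the minus strand) for a subunit of eIF2B whose mRNA fell, and Eif4a1 (chr11:69672374-69672673 on the minus strand) and Eif4g1 (chr16:20672477-20672776 on the plus strand) for the cap complex. Capitals mark the matches, and the sequences read 5′ to 3′ on the strand of the gene.
Eif2s2: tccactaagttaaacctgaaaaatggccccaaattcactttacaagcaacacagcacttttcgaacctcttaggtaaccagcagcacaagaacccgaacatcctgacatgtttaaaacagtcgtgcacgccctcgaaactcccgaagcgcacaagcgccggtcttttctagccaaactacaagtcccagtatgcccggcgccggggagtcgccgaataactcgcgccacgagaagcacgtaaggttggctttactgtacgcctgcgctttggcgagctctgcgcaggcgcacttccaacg
Eif2s3x: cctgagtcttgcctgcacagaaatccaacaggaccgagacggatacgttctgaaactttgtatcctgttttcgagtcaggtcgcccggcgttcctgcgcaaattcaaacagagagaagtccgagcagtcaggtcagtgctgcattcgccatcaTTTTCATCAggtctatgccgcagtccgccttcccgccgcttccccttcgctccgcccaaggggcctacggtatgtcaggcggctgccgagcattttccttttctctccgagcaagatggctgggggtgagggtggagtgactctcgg
Eif2b4: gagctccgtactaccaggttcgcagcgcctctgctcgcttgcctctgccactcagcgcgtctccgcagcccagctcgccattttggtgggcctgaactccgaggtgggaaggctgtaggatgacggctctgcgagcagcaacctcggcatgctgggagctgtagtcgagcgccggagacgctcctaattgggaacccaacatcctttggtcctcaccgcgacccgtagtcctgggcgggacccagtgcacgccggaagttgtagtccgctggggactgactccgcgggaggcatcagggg
Eif4a1: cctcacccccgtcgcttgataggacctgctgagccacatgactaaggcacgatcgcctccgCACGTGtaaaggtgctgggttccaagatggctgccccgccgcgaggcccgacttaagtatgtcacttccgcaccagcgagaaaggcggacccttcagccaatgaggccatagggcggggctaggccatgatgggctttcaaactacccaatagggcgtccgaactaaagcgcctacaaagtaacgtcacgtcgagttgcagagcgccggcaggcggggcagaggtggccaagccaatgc
Eif4g1: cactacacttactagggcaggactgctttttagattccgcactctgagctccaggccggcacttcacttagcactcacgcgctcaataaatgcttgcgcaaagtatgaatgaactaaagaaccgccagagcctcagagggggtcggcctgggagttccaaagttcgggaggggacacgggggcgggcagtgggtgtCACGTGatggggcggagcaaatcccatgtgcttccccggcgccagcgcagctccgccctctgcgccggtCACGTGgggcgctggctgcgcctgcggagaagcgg
CACGTG was found in 12 of the 50 windows of initiation factor genes (24.0%), against 7.15% of 32851 windows of all genes. Windows of a gene can overlap, and 3 of the 12 belong to Eif5a, of which 2 hold the same site. Counted once per gene, 10 of 38 factor genes had a match (26.3%), against 8.09% of 27025 genes. It occurred in 3 of 16 windows of factors called higher in sh-1 and in 2 of 17 windows of factors called lower. TGATGNAAN was found in 1 of the 50 windows, that of Eif2s3x, against 3.95% of all windows. A match only says that these letters are present.

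Libraries held 36997329 to 41506383 counts in sh-1 and 39462554 to 51334798 counts in sh-NC, and the 51 genes took 1.79 to 1.83% of them in sh-1 and 1.85 to 1.88% in sh-NC. Replicates of a group differed by more than sampling noise (chi-square per degree of freedom from 15.6 to 57.0), and each library counted as 1 replicate. Of 11 hepatocyte markers all were detected, but Alb, the defining one, averaged 2.68 ± 1.07 CPM in sh-1 and 4.43 ± 0.730 CPM in sh-NC and Ttr averaged 0.164 ± 0.0443 CPM in sh-1 and 2.09 ± 0.0733 CPM in sh-NC, while Hnf4a averaged 337 ± 25.5 CPM in sh-1 and 149.9 ± 5.24 CPM in sh-NC (SD, n = 3 each). Of the 11, 3 were called higher (Hnf4a, Apob at a log2 fold change of 2.53 and Afp at 0.62) and 7 lower. Over all genes tested 33.3% and 32.2% were. With the GC and length correction 2 were higher and 4 lower. Summed FPKM, which the authors scaled for transcript length and library depth, was 3796 to 4626 in sh-1 and 5682 to 6571 in sh-NC over these markers. Most of this sum was Krt8 and Krt18, which averaged 1961 and 1930 FPKM in sh-1 and 2632 and 3382 FPKM in sh-NC. Both were called lower. With the GC and length correction Krt8 was at 0.0050 and not called, and Krt18 was lower at -0.44. Over 5 cholangiocyte markers the sum was 2116 to 2403 in sh-1 and 835 to 891 in sh-NC, with Epcam under 1 FPKM throughout. Of these markers only Spp1 was called higher (log2 fold change 3.84), averaging 1470 FPKM in sh-1 and 97.4 FPKM in sh-NC. Sox9 and Krt7 were called lower (-1.62 and -0.83), and Krt19 was not called. After the GC and length correction Spp1 was at 3.01, Sox9 at -1.66 and Krt7 at -0.59, and Krt19 was called higher at 0.63. Summed FPKM of 7 fibroblast and stellate markers was 2.36 to 3.03 in sh-1 and 2.24 to 2.73 in sh-NC, with Lrat at 0 counts. That of 5 endothelial markers stayed under 1 in every library, and that of 6 macrophage and leukocyte markers was 0.606 to 1.06 in sh-1 and 3.48 to 4.02 in sh-NC, with Cd3e and Clec4f at 0 counts. Of the last list Cd68 was called lower (-2.51) and Csf1r higher (1.54). The part of cell identity in the results was not tested, and in bulk RNA fewer cells of a kind and less RNA per cell cannot be told apart.

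Initiation factor mRNAs changed in both directions. The 3 tested eIF2 genes were higher in sh-1 and 4 of 5 eIF2B genes were lower. Genes that were higher and genes that were lower were both found in eIF1 and eIF1A, in eIF3 and in eIF4. After the correction described below Eif2s1 was lower, and 3 eIF2B genes were called lower. No gene of eIF1 and eIF1A was then called higher and 4 were lower. In eIF3 none was higher and 10 were lower, and in eIF4 6 were higher and 5 lower. Of the 48 factor genes 44 passed the filter on low counts. Among these, 17 were higher and 17 lower at an edgeR adjusted p under 0.05, and 10 did not pass. Over all genes tested 33.3% were called higher and 32.2% lower, so 77.3% of the tested factors were called against 65.5% of all genes. The 33.3% and 32.2% are also to be set beside each count by factor. The median log2 fold change of the 44 factors was -0.079, against -0.000647 over all genes. At least a 2-fold rise was called for 4 factors (Eif2s2, Eif2a, Eif4g2 and Eif2s3x) and at least a 2-fold fall for 2 (Eif1ad and Eif2b4), where all genes gave 17.1% and 12.6%. CPM values of the groups did not overlap in 33 factors, above in 15 and below in 18. The same was so for 70.3% of all genes tested.

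**Figure D1:**
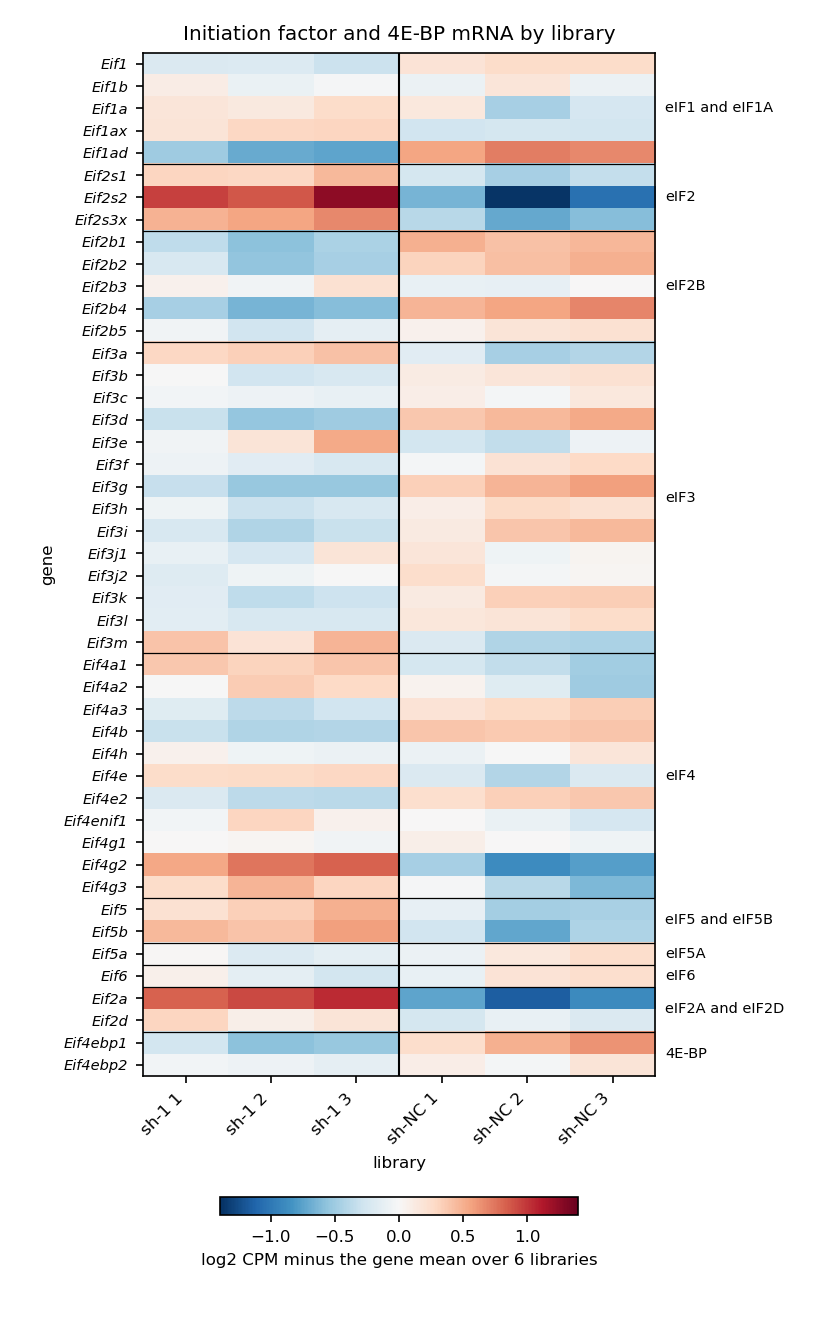
Level of each of the 46 tested initiation factor and 4E-BP genes in each library, as log2 CPM minus the mean of the gene over the 6 libraries (red higher, blue lower); columns are the sh-1 libraries on the left and the sh-NC libraries on the right, and rows are grouped by factor. Eif2s2, Eif2a and Eif4g2 were red in all 3 sh-1 libraries and blue in all 3 sh-NC libraries, and Eif1ad and Eif2b4 the reverse.

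Fold changes of these genes followed the GC content of their transcripts, as those of all genes did. Spearman's rho between GC content of the longest protein-coding transcript and log2 fold change was -0.63 over the 44 factors and -0.50 over 11956 genes; genes share the libraries, so no p is given. The 17 factors called higher had a median GC content of 43.2% (39.7 to 52.3%), and the 17 called lower had 52.9% (49.3 to 56.8%). Most fold changes are therefore also given after the trend of each library along GC content and transcript length was removed. This removal centres a gene on others of its composition and length. Spearman's rho between GC content and corrected log2 fold change was 0.23 over the 44 factors, so some relation of the opposite sign remained among them. With the trend removed, 11 of the 44 factors were called higher and 24 lower, against 33.1% and 34.5% of 11956 genes (67.7% in either direction). Called both before and after were 7 rises and 15 falls of the 44, against 23.9% and 24.4% of all genes, while 7 rises turned into called falls and no fall turned into a called rise. Over all genes 3.63% were called in opposite directions. What gave rise to the trend was not tested.

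**Figure D2:**
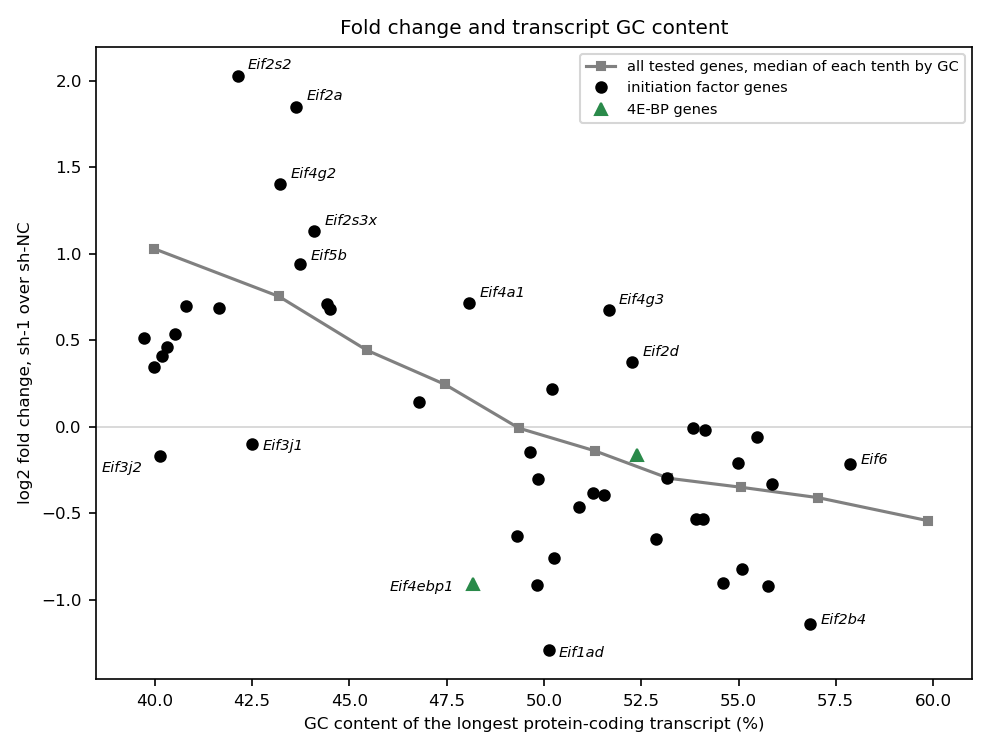
Log2 fold change, sh-1 over sh-NC, of each tested initiation factor gene (black) and 4E-BP gene (green triangles) against the GC content of its longest protein-coding transcript; grey squares are the medians of all tested genes in 10 bins of equal size by GC content, from 1.03 in the lowest bin to -0.54 in the highest. Eif2s2, Eif2a, Eif4a1, Eif4g3 and Eif2d lie above the grey line, and Eif1ad, Eif4ebp1, Eif3j1 and Eif3j2 below it.

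All 3 tested subunit genes of eIF2 were higher in sh-1. Eif2s2, which encodes the beta subunit (chromosome 2, 154871410 to 154892935, GRCm38), measured 124, 117 and 152 CPM in the sh-1 libraries, against 40.6, 24.7 and 30.9 CPM in the sh-NC libraries. It was the largest rise among the tested factors, 4.08-fold with a log2 fold change of 2.03 (edgeR adjusted p = 1.22e-06, SE 0.17), and the groups lay far apart although the sh-NC libraries spread widely. Eif2s3x, which encodes the gamma subunit that binds GTP and the initiator tRNA (chromosome X, 94188707 to 94212862), measured 243, 256 and 277 CPM in the sh-1 libraries, against 133, 106 and 115 CPM in the sh-NC libraries, again without overlap (log2 fold change 1.13, edgeR adjusted p = 7.43e-07, SE 0.10). Eif2s1 encodes the alpha subunit, the target of the stress kinases, and measured 201, 199 and 223 CPM in the sh-1 libraries, against 138, 118 and 129 CPM in the sh-NC libraries. Its rise was the smallest of the group, at 0.70 (edgeR adjusted p = 1.59e-05, SE 0.086). With the GC and length trend removed, Eif2s2 was still higher at 1.14 (edgeR adjusted p = 3.27e-06, SE 0.12). Eif2s3x was higher at 0.43 (edgeR adjusted p = 3e-05, SE 0.061), and Eif2s1 was lower at -0.31 (edgeR adjusted p = 0.00159, SE 0.072). The coding sequence of Eif2s3x is 86.3% identical to that of its Y-linked copy Eif2s3y, which held 0, 4 and 0 counts in sh-1, against 0, 0 and 0 counts in sh-NC and was not tested.

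Per transcript length, the 3 eIF2 mRNAs lay closer together in sh-1 than in sh-NC. In FPKM, Eif2s2 averaged 50.7 ± 7.56 FPKM in sh-1 and 12.1 ± 3.31 FPKM in sh-NC (SD, n = 3 each). Eif2s1 averaged 60.0 ± 4.48 FPKM in sh-1 and 35.4 ± 3.62 FPKM in sh-NC, and Eif2s3x averaged 69.8 ± 5.66 FPKM in sh-1 and 30.5 ± 4.49 FPKM in sh-NC. Eif2s2 was the lowest of the 3 in both groups, and its FPKM values did not overlap with those of Eif2s1 or Eif2s3x in sh-NC. In sh-1 the range of Eif2s2 overlapped that of Eif2s1.

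Genes of eIF2B, the exchange factor of eIF2, moved the other way, with 4 of 5 lower in sh-1 and none higher. Eif2b4, for the delta subunit of the regulatory body (chromosome 5, 31187558 to 31193430), measured 41.8, 36.8 and 38.0 CPM in the sh-1 libraries, against 79.8, 84.5 and 92.2 CPM in the sh-NC libraries. Its sh-1 values were less than those of any sh-NC library, with a log2 fold change of -1.14 (edgeR adjusted p = 6.25e-07, SE 0.10). Eif2b1, for the alpha subunit that senses phosphorylated eIF2, measured 73.5, 63.0 and 69.0 CPM in the sh-1 libraries, against 132, 124 and 129.9 CPM in the sh-NC libraries (log2 fold change -0.91, edgeR adjusted p = 1.48e-06, SE 0.085). Eif2b2, for the beta subunit, measured 118, 94.1 and 99.7 CPM in the sh-1 libraries, against 171, 185 and 194 CPM in the sh-NC libraries (log2 fold change -0.82, edgeR adjusted p = 1.04e-05, SE 0.10). These are the regulatory subunits, and in all of them the groups were separate. The catalytic epsilon subunit gene Eif2b5 measured 228, 195 and 216 CPM in the sh-1 libraries, against 246, 267 and 272 CPM in the sh-NC libraries, a small change of -0.30 (edgeR adjusted p = 0.00784, SE 0.084) that was not called without sh-1 replicate 2 (-0.23, edgeR adjusted p = 0.0625). Its catalytic partner gene Eif2b3, for the gamma subunit, was at 0.14 and did not pass (edgeR adjusted p = 0.24). With the GC and length trend removed, Eif2b1, Eif2b2 and Eif2b4 stayed lower at -0.88, -0.44 and -0.65, and Eif2b5 was at 0.022 (edgeR adjusted p = 0.784, SE 0.066). Exons of Eif2b4 share 204 bases with those of Snx17 on the opposite strand, which had a log2 fold change of 0.11 (edgeR adjusted p = 0.251), and it is not stated whether counting used the strand.

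Set against eIF2 alpha within each library, Eif2b4 and Eif2b5 mRNA were lower in sh-1 before the correction. The FPKM ratio of Eif2b4 to Eif2s1 was 0.353, 0.313 and 0.290 in sh-1, against 0.993, 1.21 and 1.23 in sh-NC. That of Eif2b5 to Eif2s1 was 1.51, 1.31 and 1.29 in sh-1, against 2.38, 3.02 and 2.84 in sh-NC. The log2 ratios differed by -1.84 and -1.0. In a two-sided exact permutation test both gave p = 0.1, as did all 10 ratios examined (adjusted p = 0.1), and 0.1 is the smallest value that 3 libraries against 3 allow. These genes differ in GC content (56.8% and 53.2% against 40.8%), and from the corrected fold changes the differences were -0.33 and 0.34, so the second changed sign.

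**Figure D3:**
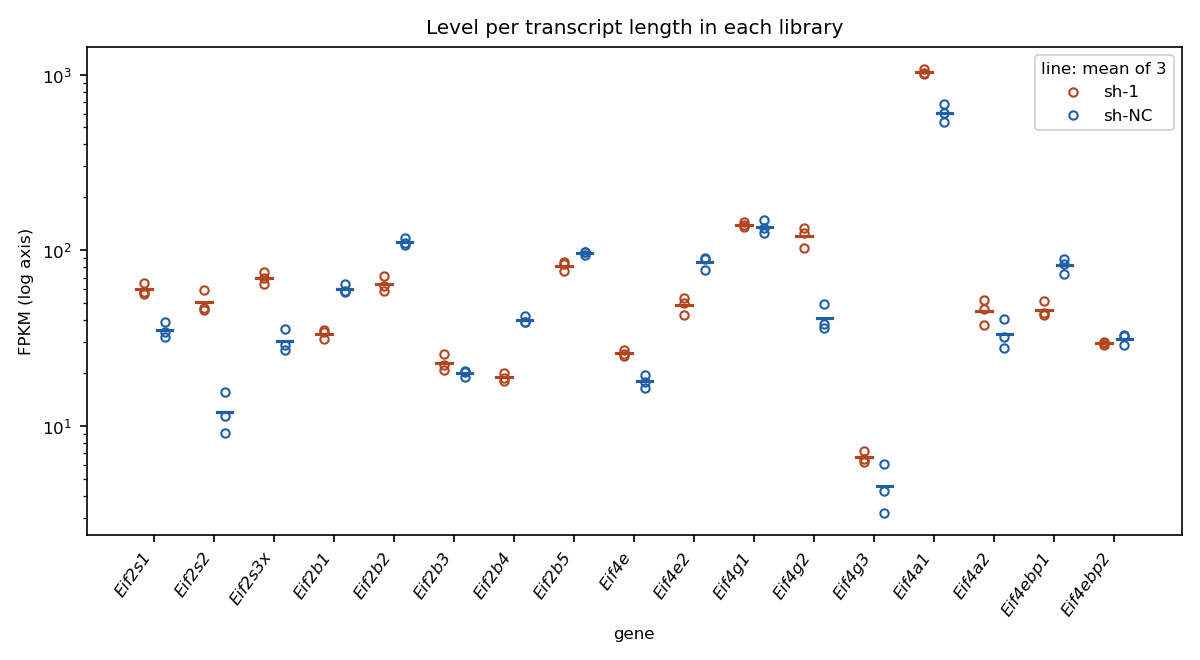
FPKM of 17 genes of eIF2, eIF2B, the cap complex and the 4E-BPs in each library on a log axis, sh-1 to the left of sh-NC for each gene; circles are libraries and lines the mean of 3. Eif2s2 and Eif4g2 were higher in every sh-1 library, Eif2b4 and Eif4ebp1 were lower in every sh-1 library, and Eif4g1 overlapped.

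Most eIF3 genes fell, and all 14 were measured. eIF3 is the largest initiation factor, a scaffold on the small ribosomal subunit, and 8 of its genes were lower, 3 higher and 3 not called. The module of the b, g and i subunits was lower in all 3 of its genes. Eif3g, for an RNA-binding subunit that aids scanning, measured 188, 163 and 163 CPM in the sh-1 libraries, against 297, 327 and 349 CPM in the sh-NC libraries (log2 fold change -0.92, edgeR adjusted p = 2.39e-06, SE 0.091). Eif3i was at -0.65 (edgeR adjusted p = 7.96e-05, SE 0.10) and Eif3b at -0.33 (edgeR adjusted p = 0.00851, SE 0.095); Eif3b was not called without sh-1 replicate 2 or 3 (edgeR adjusted p = 0.0641 and 0.0525). Eif3d, for the subunit that can bind the cap of selected mRNAs itself, measured 694, 592 and 614 CPM in the sh-1 libraries, against 1124, 1185 and 1244 CPM in the sh-NC libraries (log2 fold change -0.90, edgeR adjusted p = 3.93e-06, SE 0.094). Groups were separate in Eif3g and Eif3d, with every sh-1 library under every sh-NC library.

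The 8 genes of the eIF3 core were split, with 4 lower and 3 higher, where 32.2% and 33.3% of all genes tested were. Eif3m measured 244, 210.4 and 256 CPM in the sh-1 libraries, against 160.4, 138 and 136 CPM in the sh-NC libraries (log2 fold change 0.71, edgeR adjusted p = 3.85e-05, SE 0.10), and Eif3a, for the largest subunit, measured 536, 551 and 582 CPM in the sh-1 libraries, against 394, 317 and 329 CPM in the sh-NC libraries (log2 fold change 0.68, edgeR adjusted p = 4.68e-05, SE 0.10). In both, every sh-1 library was above every sh-NC library. The third rise was Eif3e at 0.46 (edgeR adjusted p = 0.00861, SE 0.13), with 324, 379 and 483 CPM in the sh-1 libraries, against 280.4, 264 and 319 CPM in the sh-NC libraries. The sh-1 libraries of Eif3e spread widely and the lowest of them lay just above the highest sh-NC library. Falls were smaller, at -0.53, -0.40, -0.38 and -0.30 for Eif3k, Eif3l, Eif3h and Eif3f. The call of Eif3f (edgeR adjusted p = 0.0164) was lost without sh-1 replicate 2 or 3 and without sh-NC replicate 2 or 3 (edgeR adjusted p between 0.0643 and 0.0863). Eif3c, for a subunit that contacts eIF1 and eIF5, did not pass at -0.15 (edgeR adjusted p = 0.146).

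With the GC and length trend removed, no eIF3 gene was called higher and 10 were called lower, against 33.1% and 34.5% of all genes. Eif3a and Eif3m were then at -0.020 and -0.0039 and did not pass, and Eif3e was lower at -0.64 (edgeR adjusted p = 8.01e-06, SE 0.080). Eif3d, Eif3g and Eif3i stayed lower, at -0.53, -0.53 and -0.41, while Eif3b was at 0.13 (edgeR adjusted p = 0.0988). Eif3j1 and Eif3j2 encode the loosely bound j subunit, and their coding sequences are 99.7% identical, so the split of reads between them is uncertain. Neither passed before (-0.10 and -0.17) and both were lower after, Eif3j1 at -1.03 (edgeR adjusted p = 9.97e-07, SE 0.10) and Eif3j2 at -1.22 (edgeR adjusted p = 3.57e-08, SE 0.086). Exons of Eif3j1 share 1107 bases with those of Spg11 on the opposite strand, which had a log2 fold change of 1.39 (edgeR adjusted p = 6.84e-07). Those of Eif3d share 2151 bases with the antisense gene Gm17638, and where strand is not used their reads cannot be told apart. A protein-coding partner on the other strand also overlaps exons of Eif5b (Rev1), Eif4a2 (Rfc4), Eif3m (Ccdc73) and Eif2d (Rassf5). Each of these 4 partners had fewer counts than its factor in every library, whereas Serp1, opposite Eif2a, held 6924 to 9599 counts against 741 to 3506 for Eif2a, and Snx17, opposite Eif2b4, held 4900 to 6801 counts against 1456 to 4437 for Eif2b4. Banf1, opposite Eif1ad, held 7013 to 10306 counts against 3883 to 12961 for Eif1ad.

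Per transcript length the eIF3 mRNAs spanned a wide range with Eif3j1 lowest and Eif3h highest in both groups. Mean FPKM ran from 9.90 for Eif3j1 to 767 for Eif3h in sh-1, and from 10.1 to 956 in sh-NC for the same genes. Eif3h was above every other eIF3 gene in each library. The median over the 14 genes was 225 FPKM in sh-1 and 287 FPKM in sh-NC. Eif3e averaged 259 ± 56.5 FPKM in sh-1 and 179 ± 15 FPKM in sh-NC, and Eif3g averaged 153 ± 9.66 FPKM in sh-1 and 276 ± 13.2 FPKM in sh-NC (SD, n = 3 each). Eif3e was thus above Eif3g in sh-1 and below it in sh-NC. These FPKM values are not corrected, and the 2 transcripts differ in GC content (40.3% for Eif3e and 55.8% for Eif3g). Their corrected log2 fold changes were both negative, at -0.64 for Eif3e and -0.53 for Eif3g.

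In the cap complex, genes of the scaffold family eIF4G and of the helicase eIF4A rose in part. Eif4g2 encodes DAP5, a scaffold that lacks the eIF4E-binding part and serves initiation away from the cap (chromosome 7, 111067750 to 111083030). It measured 786, 911 and 959 CPM in the sh-1 libraries, against 393, 295 and 317 CPM in the sh-NC libraries, a rise of 2.64-fold with a log2 fold change of 1.4 (edgeR adjusted p = 6.9e-07, SE 0.12). Eif4g3, for a paralogue of the main scaffold, measured 46.9, 54.6 and 48.3 CPM in the sh-1 libraries, against 38.9, 29.9 and 25.3 CPM in the sh-NC libraries (log2 fold change 0.67, edgeR adjusted p = 0.00124, SE 0.14). Eif4g1, the main scaffold, measured 770.3, 783 and 742 CPM in the sh-1 libraries, against 815, 772 and 735 CPM in the sh-NC libraries and did not pass at -0.017 (edgeR adjusted p = 0.875, SE 0.084). With the trend removed, Eif4g2 was at 0.47 (edgeR adjusted p = 1.08e-05, SE 0.061) and Eif4g3 at 0.75 (edgeR adjusted p = 2.49e-05, SE 0.10). Eif4g1 was at 0.28 (edgeR adjusted p = 0.00112, SE 0.061), so that all 3 were called higher.

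Within a library, Eif4g2 mRNA approached that of Eif4g1 in sh-1. Their FPKM ratio was 0.745, 0.860 and 0.985 in sh-1, against 0.336, 0.269 and 0.305 in sh-NC, a difference of 1.5 on the log2 scale and 0.19 from the corrected fold changes. The ratio of Eif4g3 to Eif4g1 was 0.0453, 0.05 and 0.0478 in sh-1, against 0.0413, 0.0321 and 0.0257 in sh-NC, a difference of 0.56 (0.47 corrected). Groups were separate in both ratios.

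Eif4a1, for the main RNA helicase that unwinds the leader of an mRNA (chromosome 11, 69666936 to 69672423), measured 1889, 1801 and 1912 CPM in the sh-1 libraries, against 1229, 1146 and 1038 CPM in the sh-NC libraries. It had the highest FPKM of the eIF4 genes in every library, and it rose by 0.71 (edgeR adjusted p = 3.49e-05, SE 0.10), with 0.53 (edgeR adjusted p = 1.34e-05, SE 0.069) after the trend was removed. Its paralogue Eif4a2 measured 80.8, 104 and 98.4 CPM in the sh-1 libraries, against 83.7, 72.0 and 57.5 CPM in the sh-NC libraries, where the groups overlapped. That small rise of 0.41 (edgeR adjusted p = 0.0178, SE 0.13) was not called without sh-1 replicate 2 (0.35, edgeR adjusted p = 0.0687) or sh-NC replicate 3 (0.28, edgeR adjusted p = 0.078), and with the trend removed Eif4a2 was lower at -0.64 (edgeR adjusted p = 0.000414, SE 0.12). Eif4a3, a relative that works in the exon junction complex and not in initiation, measured 294, 257 and 275 CPM in the sh-1 libraries, against 377, 398 and 421 CPM in the sh-NC libraries (log2 fold change -0.53, edgeR adjusted p = 0.000115, SE 0.084, and a corrected log2 fold change of -0.21). The FPKM ratio of Eif4a2 to Eif4a1 was 0.0368, 0.0515 and 0.0430 in sh-1, against 0.0600, 0.0533 and 0.0519 in sh-NC, a log2 difference of -0.34 (-1.18 corrected). The highest sh-1 library nearly met the lowest sh-NC library, and with CPM in place of FPKM the groups overlapped (two-sided exact permutation p = 0.2). Coding sequences of Eif4a1 and Eif4a2 are 78.4% identical, and several small RNA genes lie within exons annotated for both.

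Of the helicase cofactor genes, Eif4b moved against Eif4a1 and Eif4h did not. Eif4b, which stimulates eIF4A, measured 1249, 1163 and 1168 CPM in the sh-1 libraries, against 2037, 1998 and 2028 CPM in the sh-NC libraries, a log2 fold change of -0.76 (edgeR adjusted p = 1.06e-05, SE 0.090). It was lower as well with the trend removed (log2 fold change -0.69, edgeR adjusted p = 7.99e-07, SE 0.067). Every sh-1 library was below every sh-NC library in Eif4b while the reverse was so in Eif4a1. Eif4h, for a smaller cofactor of the same kind, was at -0.061 and did not pass (edgeR adjusted p = 0.571), and it was higher at 0.39 (edgeR adjusted p = 0.000134, SE 0.065) with the trend removed.

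Among the cap-binding genes, Eif4e and Eif4e2 moved apart. Eif4e, for the protein that binds the cap (chromosome 3, 138526179 to 138559696), measured 128, 129 and 131 CPM in the sh-1 libraries, against 93.3, 80.8 and 93.3 CPM in the sh-NC libraries (log2 fold change 0.54, edgeR adjusted p = 0.000115, SE 0.084). Eif4e2, for 4EHP, a cap-binding protein that represses translation with GIGYF partners, measured 112, 99.2 and 98.3 CPM in the sh-1 libraries, against 151, 162 and 166 CPM in the sh-NC libraries (log2 fold change -0.63, edgeR adjusted p = 2.85e-05, SE 0.083). Their FPKM ratio, Eif4e2 to Eif4e, was 2.14, 1.95 and 1.59 in sh-1, against 3.95, 5.48 and 5.01 in sh-NC, a log2 difference of -1.34. With the trend removed Eif4e was lower at -0.54 (edgeR adjusted p = 0.000154, SE 0.092), Eif4e2 stayed lower at -0.65 (edgeR adjusted p = 8.2e-06, SE 0.080), and the difference between them was -0.10. Eif4enif1, for the transporter 4E-T that carries eIF4E to the nucleus, did not pass at 0.22 (edgeR adjusted p = 0.0941) and was at 0.29 (edgeR adjusted p = 0.00939, SE 0.088) with the trend removed. Eif4e1b held 0 counts in every library, which allows up to 3 counts per library, and Eif4e3 held 7 counts in sh-NC replicate 3 and 0 elsewhere.

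Of the 4E-BP genes, Eif4ebp1 was lower in sh-1 and Eif4ebp2 was not called. Eif4ebp1 (chromosome 8, 27260329 to 27276674) measured 107, 85.8 and 88.4 CPM in the sh-1 libraries, against 151, 179.8 and 197 CPM in the sh-NC libraries. All sh-1 libraries were below all sh-NC libraries, with a log2 fold change of -0.91 (edgeR adjusted p = 1.62e-05, SE 0.11). With the trend removed it was -1.08 (edgeR adjusted p = 1.3e-05, SE 0.12). Eif4ebp2 measured 179, 175 and 168 CPM in the sh-1 libraries, against 196, 179 and 207 CPM in the sh-NC libraries, where sh-1 lay only just below sh-NC, and did not pass at -0.16 (edgeR adjusted p = 0.0971, SE 0.081). After the correction it was at 0.022 (edgeR adjusted p = 0.796, SE 0.071). Eif4ebp3 held 0, 2 and 0 counts in sh-1, against 0, 2 and 0 counts in sh-NC, too few to test. Per transcript length Eif4ebp1 was the most abundant of them in both groups, with 51.3, 42.7 and 44.0 FPKM in sh-1, against 73.7, 83.9 and 89.9 FPKM in sh-NC, and Eif4ebp2 had 29.7, 30.1 and 28.8 FPKM in sh-1, against 33.0, 28.9 and 32.7 FPKM in sh-NC.

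With Eif4ebp1 lower and Eif4e higher, the ratio of inhibitor to target mRNA was lower in sh-1. Summed FPKM of the 4E-BPs over that of Eif4e was 3.22, 2.82 and 2.70 in sh-1, against 5.46, 6.86 and 6.86 in sh-NC, a log2 difference of -1.13. Once corrected, Eif4e was lower at -0.54, Eif4ebp1 was lower at -1.08 and Eif4ebp2 was at 0.022. No corrected difference was computed for the summed ratio, so whether its fall holds after the correction was not tested. Eif4ebp1 to Eif4ebp2 was 1.73, 1.42 and 1.53 in sh-1, against 2.23, 2.90 and 2.75 in sh-NC, with a log2 difference of -0.75 and -1.10 from the corrected fold changes.

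**Figure D4:**
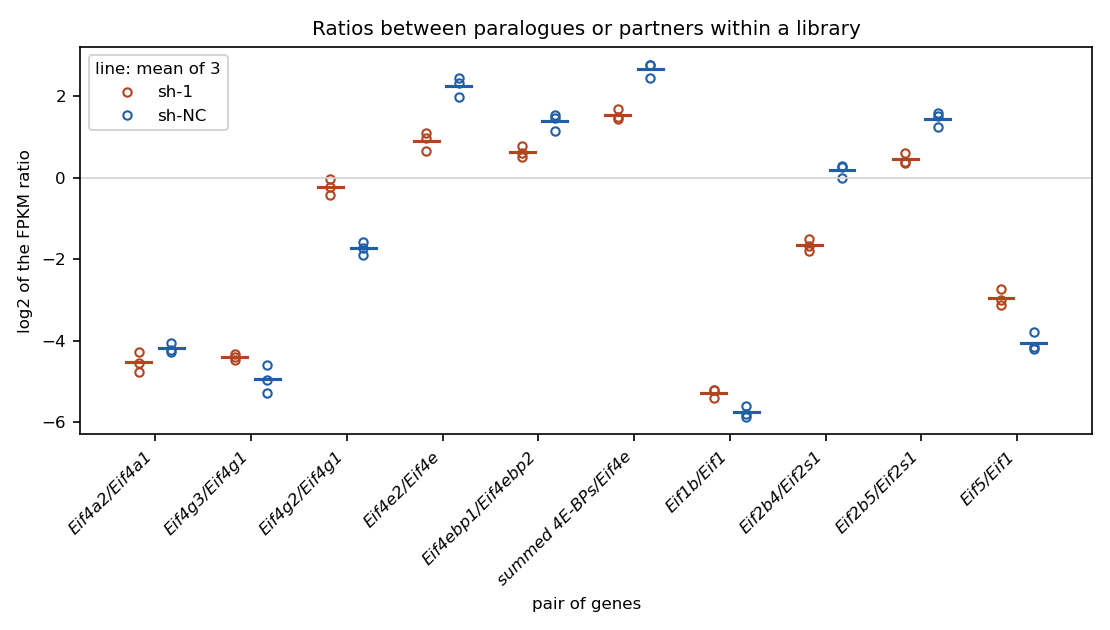
Log2 of the FPKM ratio between 10 pairs of paralogues or partners in each library, sh-1 to the left of sh-NC for each pair; circles are libraries and lines the mean of 3. The groups were separate in each pair, though for Eif4a2 over Eif4a1 they nearly touched (-4.28 in the highest sh-1 library and -4.27 in the lowest sh-NC library), and the largest difference of means was that of Eif2b4 over Eif2s1 (-1.84).

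In the group of eIF1 and eIF1A, which keep the scanning ribosome open until it meets a start codon, 2 genes were lower and 2 higher. The shares of all genes tested were 32.2% and 33.3%. Eif1ad, a gene with an eIF1A domain whose product acts in ribosome maturation (chromosome 19, 5366741 to 5371526), measured 119.8, 104 and 101 CPM in the sh-1 libraries, against 249, 278 and 269 CPM in the sh-NC libraries. This was the largest fall among the tested factors, -1.29 (edgeR adjusted p = 1.35e-07, SE 0.089), and it stayed at -1.22 (edgeR adjusted p = 1.02e-08, SE 0.075) with the trend removed. Banf1, on the opposite strand with 428 exonic bases in common, was at 0.10 (edgeR adjusted p = 0.413). Eif1 measured 668, 674 and 623 CPM in the sh-1 libraries, against 878, 917 and 918 CPM in the sh-NC libraries (log2 fold change -0.46, edgeR adjusted p = 0.000337, SE 0.083, and a corrected log2 fold change of -0.37), with the groups apart. Its paralogue Eif1b, with a coding sequence 81.1% identical, was at -0.0072 and did not pass (edgeR adjusted p = 0.97). The FPKM ratio of Eif1b to Eif1 was 0.0270, 0.0235 and 0.0269 in sh-1, against 0.0181, 0.0205 and 0.0172 in sh-NC.

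Both eIF1A genes were higher before the correction and lower after it. Eif1ax, the X-linked copy, measured 122, 131 and 132 CPM in the sh-1 libraries, against 89.3, 90.8 and 89.9 CPM in the sh-NC libraries (log2 fold change 0.51, edgeR adjusted p = 8.29e-05, SE 0.077). Eif1a measured 108, 106 and 115 CPM in the sh-1 libraries, against 107, 69.6 and 81.4 CPM in the sh-NC libraries, where sh-NC replicate 1 overlapped the sh-1 libraries, and its rise of 0.35 (edgeR adjusted p = 0.0331, SE 0.13) was not called without sh-1 replicate 1 or 3 or without sh-NC replicate 2 or 3 (edgeR adjusted p between 0.0544 and 0.147). After the correction Eif1ax was at -0.64 (edgeR adjusted p = 0.000145, SE 0.10) and Eif1a at -0.69 (edgeR adjusted p = 4.44e-05, SE 0.10). Their coding sequences are 85.6% identical.

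Of the factors that act at the start codon and after it, Eif5 and Eif5b were higher. Eif5, which makes eIF2 hydrolyse its GTP (chromosome 12, 111538016 to 111546752), measured 231, 252 and 282 CPM in the sh-1 libraries, against 185, 144 and 146 CPM in the sh-NC libraries (log2 fold change 0.69, edgeR adjusted p = 0.000138, SE 0.11). Eif5b, for the GTPase that joins the large subunit, measured 195, 187 and 210.4 CPM in the sh-1 libraries, against 118, 85.9 and 105 CPM in the sh-NC libraries (log2 fold change 0.94, edgeR adjusted p = 9.26e-06, SE 0.11). Both sets of libraries were separate. After the correction Eif5 was lower at -0.28 (edgeR adjusted p = 0.0018, SE 0.064) and Eif5b was at 0.079 (edgeR adjusted p = 0.445, SE 0.088), so neither rise was called. The FPKM ratio of Eif5 to Eif1, a pair with opposed effects on start codon choice, was 0.115, 0.125 and 0.152 in sh-1, against 0.0723, 0.0545 and 0.0561 in sh-NC, a log2 difference of 1.10 (0.094 corrected). Eif5a, for the hypusine-bearing factor known mainly for elongation, had the highest mean FPKM of the tested factors and averaged 1508 ± 84.2 FPKM in sh-1 and 1669 ± 134 FPKM in sh-NC; it did not pass at -0.21 (edgeR adjusted p = 0.116, SE 0.11). Eif5a2 had at most 3 counts. Eif6, for the protein that keeps ribosomal subunits apart, did not pass at -0.22 (edgeR adjusted p = 0.106, SE 0.11) and was at 0.29 (edgeR adjusted p = 0.00219, SE 0.070) with the trend removed. Before the correction it was called lower at -0.31 without sh-1 replicate 1 or sh-NC replicate 1 (edgeR adjusted p = 0.028 and 0.0143).

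Genes of the alternative factors eIF2A and eIF2D, which can deliver initiator tRNA without eIF2 on some mRNAs, were higher with and without the correction. Eif2a (chromosome 3, 58525821 to 58557501), not to be confused with the eIF2 alpha gene Eif2s1, measured 76.2, 81.6 and 89.1 CPM in the sh-1 libraries, against 25.8, 19.4 and 23.2 CPM in the sh-NC libraries. It rose 3.61-fold with a log2 fold change of 1.85 (edgeR adjusted p = 7.68e-08, SE 0.12), and 1.10 (edgeR adjusted p = 4.43e-08, SE 0.079) corrected, and no library of one group came near those of the other. Serp1, with 72 exonic bases in common on the opposite strand, was at 0.19 (edgeR adjusted p = 0.0489). Eif2d, which also acts in ribosome recycling, measured 85.0, 73.0 and 78.4 CPM in the sh-1 libraries, against 58.3, 64.1 and 60.0 CPM in the sh-NC libraries (log2 fold change 0.37, edgeR adjusted p = 0.00292, SE 0.090). Its rise was larger with the trend removed, at 0.63 (edgeR adjusted p = 6.19e-06, SE 0.076).

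**Figure D5:**
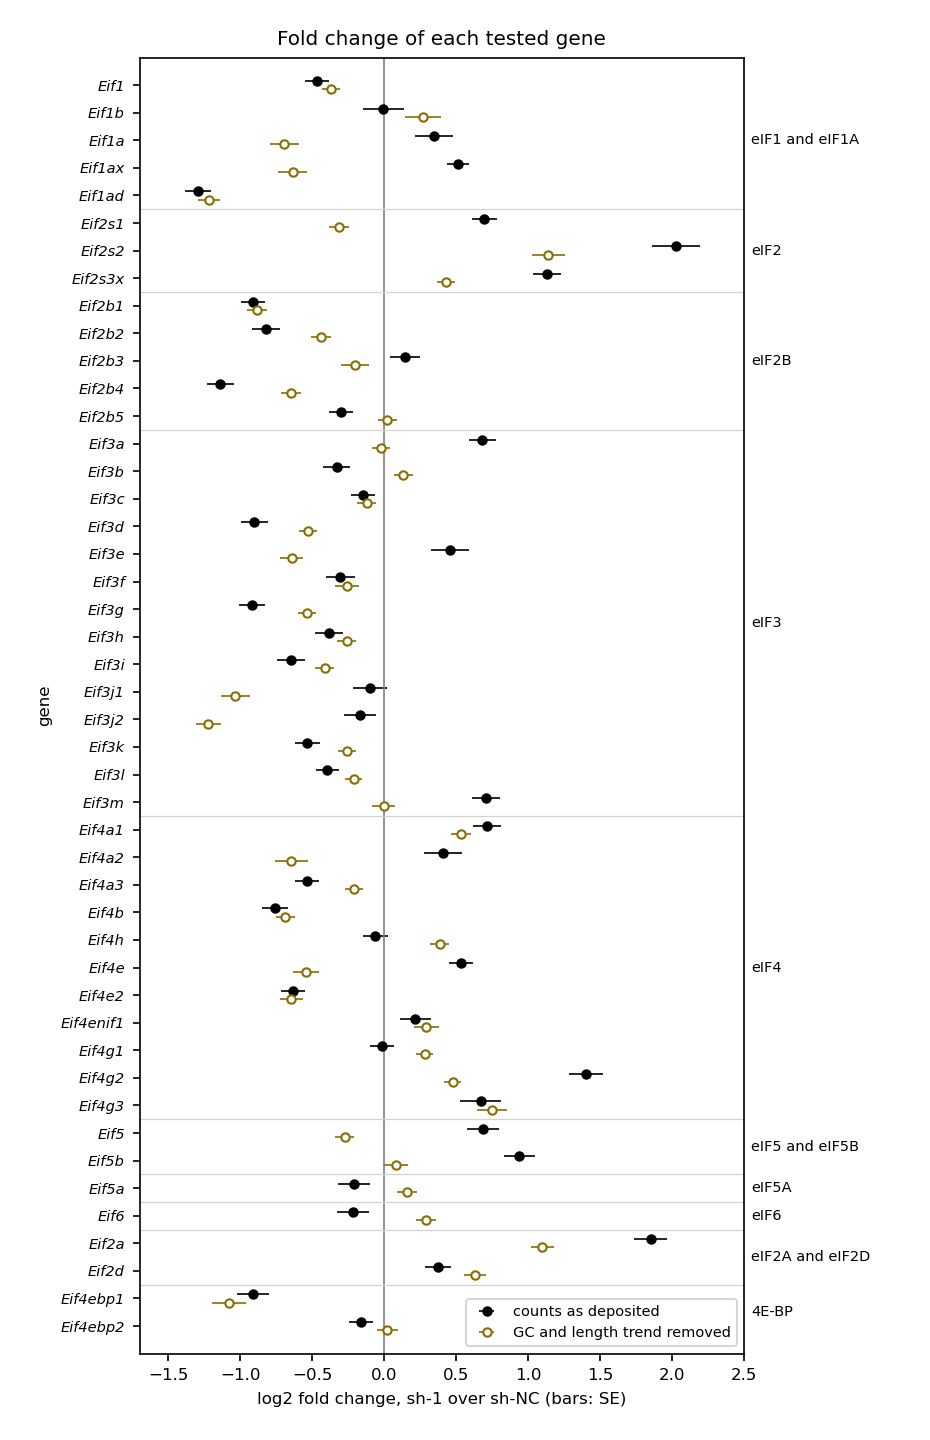
Log2 fold change, sh-1 over sh-NC, of the 46 tested genes by factor, from the deposited counts (black) and with each library's trend along GC content and transcript length removed (open); bars are SE. Eif2s2, Eif2s3x, Eif4a1, Eif4g2, Eif4g3, Eif2a and Eif2d lie to the right of 0 in both, whereas Eif1a, Eif1ax, Eif2s1, Eif3e, Eif4a2, Eif4e and Eif5 change sides.

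Other genes of the translation pathway changed in both directions as well, and each gene named from the following lists had an edgeR adjusted p under 0.05. The median log2 fold change was 0.13 for partners of the cap complex, 0.25 for recycling, -0.55 for elongation, 0.54 for termination, -0.10 for mTORC1 and its S6 kinases and -0.27 for tRNA delivery, against -0.000647 over all genes. The corrected medians were -0.28 for partners of the cap complex, 0.0023 for recycling, -0.35 for elongation, 0.048 for termination, -0.0039 for mTORC1 and -0.032 for tRNA delivery, against -0.013 over all genes. The shares of all genes to set beside the counts are 33.3% higher and 32.2% lower, and 33.1% and 34.5% with the trend removed. Of 21 partners of the cap complex, 9 were higher and 6 lower. After the correction 6 were higher and 13 lower, as 3 rises turned into called falls and 4 genes not called before were lower. Mknk2, for a kinase that phosphorylates eIF4E, was at -1.16 on the log2 scale (62.0 ± 0.992 CPM in sh-1 and 138 ± 12.6 CPM in sh-NC), and Zfp598, which senses collided ribosomes, was at -1.34. Cyfip1, which binds eIF4E in place of eIF4G, rose by 1.04 (186 ± 3.10 CPM in sh-1 and 90.8 ± 6.55 CPM in sh-NC). Corrected, Mknk2 was at -0.50, Zfp598 at -0.72 and Cyfip1 at 0.51. Of 11 genes of recycling and reinitiation 4 were higher and 2 lower, with Abce1, the recycling ATPase, at 2.15 (edgeR adjusted p = 0.000465, SE 0.27), Mcts1, the partner of DENR, at 1.33, and the ribosome rescue gene Pelo at -0.85. The corrected counts of this list were 2 higher and 4 lower, and Mcts1 was at 0.20 and not called. Abce1 was then at 1.10 and Pelo at -0.33.

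Genes of the elongation list, which also holds enzymes that modify elongation factors and GTPases related to them, were mostly lower. Of 14 tested among 15 listed, 10 were lower and 2 higher, and with the trend removed 8 were lower and 3 higher. Dph2 and Dph1, which begin the diphthamide modification of eEF2, were at -1.41 and -1.14, and Gtpbp1, a GTPase related to eEF1A, was at -0.90. Corrected, Dph2 was at -1.03, Dph1 at -0.66 and Gtpbp1 at -0.42. Of 4 tested among 5 termination genes 2 were higher and 1 lower, among them Gspt1, which encodes eRF3 (1.02), N6amt1 (1.44) and Trmt112 (-0.76), the catalytic part and the partner of the methylase of eRF1. The corrected counts were 2 higher and 2 lower, with Gspt1 at 0.47, N6amt1 at 1.435 and Trmt112 at -0.37. In mTORC1 and its S6 kinases 2 of 12 genes were higher and 3 lower, with Tsc2, an inhibitor of the pathway, at -0.45, Rps6kb1 at 0.61 and the mTOR-binding inhibitor gene Deptor at 1.46. With the trend removed 4 were higher and 3 lower. Rps6kb1 was then called in the opposite direction (log2 fold change -0.59, edgeR adjusted p = 0.000489, SE 0.12), and Tsc2 was not called (-0.15). Deptor was at 0.65 (edgeR adjusted p = 0.0491, SE 0.27). Its level was low, with 40 to 209 counts and under 1 FPKM in every library. Of 6 tested among 8 genes of initiator tRNA and tRNA delivery 2 were higher and 4 lower, with the aspartyl-tRNA synthetase gene Dars at 1.43, Trmt61a, for a tRNA methyltransferase subunit, at -1.45 and Impact, for an inhibitor of the eIF2 kinase GCN2, at 1.52. Only 2 of this list were lower with the trend removed or without sh-1 replicate 2. Corrected, Dars was at 0.45, Trmt61a at -0.87 and Impact at 0.59.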

How the data were processed

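AML12 RNA was made into libraries after oligo(dT) enrichment and fragmentation, per the labels' protocols, and the submitters' processing notes list HISAT2, StringTie and GRCm38 without versions or strand use. The authors deposited 1 table with whole-number counts per gene, not normalised, and FPKM, which the authors scaled for transcript length and library depth (units per the file headers). The groups come from the cell line label alone. Counts were filtered with filterByExpr, scaled by TMM and tested with the quasi-likelihood test of edgeR 4.0.16 in R 4.3.3, over 13197 genes and the 6 libraries, and a call is an adjusted p under 0.05. For the correction, splines of GC content and log2 length of the longest protein-coding transcript (GENCODE M21, 11956 genes) were fitted per library and used as offsets. It also removes any change that genes of like composition share. Alternatives used DESeq2 1.42.0, limma 3.58.1 (log2 of FPKM plus 0.1 or 1), other scalings and filters, and each library left out. The scripts were tested on simulated data. Title numbers shared by the groups were not used to pair the libraries in the main test. The members and lists were chosen with earlier results of these data known. Values were printed for the 4E-BPs and up to 4 called genes per factor (per subunit in eIF4) with the largest absolute fold change, and up to 3 called genes per list with the smallest adjusted p were named. Eif4g1, Eif3e, Eif5a and the genes with few counts were given values outside this rule, after their values were seen. Corrected ratio differences and the correction with each library left out were added after seeing the data. Precision is limited by 3 libraries per group, and the limit given for 0 counts covers counting error only. Columns of the authors' own comparison of A and B were not used, as the samples behind them are not given.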

Additional observations from a re-analysis of the deposited data

How the results depend on the processing

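Of 17 other settings, those without the GC and length correction gave 15 to 18 initiation factors higher and 14 to 19 lower, with the extremes when 1 library was left out. With the correction alone 11 were higher, and Tm9sf1 was at -0.078, or -0.067 with the replicate block added. The ratio of Eif2b5 to Eif2s1 then had a difference of 0.34. The cause was not tested.

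Signs changed with the correction, given first alone and then with the replicate block, for Eif1b (0.27 and 0.20), Eif1a (-0.69 and -0.84), Eif1ax (-0.64 and -0.73), Eif2s1 (-0.31 and -0.40), Eif2b3 (-0.20 and -0.15), Eif2b5 (0.022 and 0.037), Eif3a (-0.020 and -0.057), Eif3b (0.13 and 0.10), Eif3e (-0.64 and -0.55), Eif3m (-0.0039 and -0.11), Eif4a2 (-0.64 and -0.79), Eif4h (0.39 and 0.44), Eif4e (-0.54 and -0.62), Eif4g1 (0.28 and 0.27), Eif5 (-0.28 and -0.35), Eif5a (0.16 and 0.20), Eif6 (0.29 and 0.28) and Eif4ebp2 (0.022 and 0.089). Genes near 0 that were not called also changed sign elsewhere. Eif1b was at 0.061 with upper-quartile scaling, 0.079 with total counts, 0.012 with no filter, and 0.063 and 0.058 with FPKM at a pseudocount of 0.1 and 1. Eif4h was at 0.0075 with upper-quartile scaling, 0.028 with total counts and 0.038 with FPKM at either pseudocount. Eif4g1 was at 0.052 with upper-quartile scaling, 0.069 with total counts, 0.0029 with no filter, and 0.049 and 0.048 with FPKM. Leaving out 1 library gave -0.057 to 0.081 for Eif1b, -0.21 to 0.0029 for Eif3j1, -0.11 to 0.016 for Eif4h and -0.050 to 0.025 for Eif4g1. Calls were also gained in this way. Eif5a was called lower at -0.30 without sh-NC replicate 1 (edgeR adjusted p = 0.0141). Eif4enif1 was called higher without sh-1 replicate 1 (0.29, edgeR adjusted p = 0.0368) or sh-NC replicate 1 (0.28, edgeR adjusted p = 0.0396).

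The replicate block could use only the 4 libraries whose titles share the numbers 2 and 3. Libraries with the same number did not deviate together (correlations 0.03 and -0.05). Only 2 such pairs exist, so this cannot exclude that cultures were handled in pairs, which the labels do not say. The block gave 16 factors higher and 16 lower, without the calls of Eif1a and Eif3f. Together with the correction it gave 12 higher and 23 lower. Depth limits Eif2s3y, Eif4e3, Eif4e1b, Eif5a2 and Eif4ebp3, which had too few counts to test. When each library was left out of the corrected fit, a setting added after seeing the data, the falls of Eif3h, Eif3k and Eif3l were called in 5 of 6 fits, that of Eif4a3 in 4 and that of Eif3f in 2.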
